A study of Mus musculus with 24 samples.

Results

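The MYC, MAX and MXD network was examined in MS03 cells, an immortalized Schwann cell line, through 10 genes: Myc, Mycn, Max, Mxd1, Mxd3, Mxd4, Mxi1, Mnt, Mlx and Mlxip. The members were chosen by symbol from the 49315 genes counted, with the levels of these genes in these libraries already known, so their differences between groups are given as a description and without P values. Of the 10 members, 9 passed the filter on low counts, beside 16070 of all genes. Mycn did not pass, with at most 7 counts in any library.

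RNA was sequenced from 24 libraries in 8 groups, with 3 replicates per group. All cells, the controls included, were one line derived from Nf2 flox/flox cells that had received Cre, and are labelled Nf2-/-. Gene-level Nf2 RNA was nevertheless 155 to 193 CPM (counts per 1000000 counts of a library, with TMM scaling) over the 24 libraries, and these counts do not show whether the reads lie in the deleted part, so they do not check the label. Cells were cultured for 24 hours with vehicle (DMSO), with a kinase inhibitor of focal adhesion kinase (FAK, encoded by Ptk2) or with a FAK PROTAC, a molecule that recruits a ubiquitin ligase to FAK for degradation. The kinase inhibitors were defactinib, VS-4718, GSK2256098 and ifebemtinib (IN10018), each at 1 µM. The PROTACs were PROTAC FAK degrader 1 (PROTAC-3) at 1 µM, GSK215 at 0.1 µM and BSJ-04-146 at 0.1 µM. The labels call the replicates biological but do not say whether they were separate cultures, so the errors and P values measure the spread between these libraries of one line.

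MYC and N-MYC are transcription factors that bind DNA as heterodimers with MAX at E-box sequences and raise the transcription of genes for ribosome production, nucleotide synthesis and metabolism. The MXD proteins, MXI1 and MNT also dimerize with MAX, recruit SIN3 corepressors and repress genes with the same sites. MXD proteins are known for their appearance as cells leave the cell cycle, whereas MNT is made in both growing and resting cells. MLX pairs with MLXIP, also called MondoA, which responds to glucose-derived metabolites, and MLX also accepts some MXD proteins and MNT as partners. In Schwann cells, MYC is associated with proliferation of the immature and the injury-responsive cell.

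The E-box CACGTG, bound by dimers that contain MAX or MLX, reads the same on both strands, so it was searched on the forward strand alone. It was searched in RefSeq promoter windows (GRCm38.p6) of 250 bases before to 50 bases after each start site. Windows were held for 9 of the 10 members, and the motif was present in those of 4 members, namely Max, Mxd4, Mnt and Mlx. Over all windows in that table it was present in 7.15% of 32851, or in 8.09% of 27025 genes with a window. The sequences are shown for these 4 members because they place the motif relative to the start site, with the motif in capitals, 5′ to 3′ in the direction of transcription. For Mxd4, the member that varied most, the 250 bases before the start site are given (chr5:34187711-34187960, minus strand), with the motif beginning at -219. For Max (chr12:76962246-76962281, minus strand, motif at -3), Mnt (chr11:74830771-74830836, plus strand, motif at -123) and Mlx (chr11:101087220-101087285, plus strand, motif at -40) a shorter stretch is given. Positions count from the RefSeq start sites, which differ from the GENCODE gene starts given below. In GENCODE Max starts at 76962201, so by that model its motif lies farther upstream.
Mxd4: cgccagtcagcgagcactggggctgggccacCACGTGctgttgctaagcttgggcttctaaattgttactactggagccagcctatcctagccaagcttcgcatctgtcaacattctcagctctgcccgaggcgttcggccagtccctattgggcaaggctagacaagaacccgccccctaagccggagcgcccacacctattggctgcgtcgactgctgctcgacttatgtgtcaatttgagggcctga
Max: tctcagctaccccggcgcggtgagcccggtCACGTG
Mnt: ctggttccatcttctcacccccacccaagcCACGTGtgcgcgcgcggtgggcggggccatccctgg
Mlx: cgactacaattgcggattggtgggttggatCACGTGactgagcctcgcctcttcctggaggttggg
A match of these letters is a description of the sequence, and no binding was measured.

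Library totals ranged from 14472462 to 27449516 counts, with the PROTAC libraries at 14472462 to 21588406 and the DMSO libraries at 22952048 to 27449516. Within groups no replicate was a copy of another, since the chi-square per degree of freedom was 1.73 to 8.48 over the 24 pairs of replicates. The summed level of 8 Schwann cell markers was 52.6 to 54.0 CPM in DMSO, so the labelled cell type had Sox10 and Erbb3 present but S100b and Egr2 under 1 CPM in every group mean. That sum was 75.8 to 80.9 with defactinib, 119 to 130 with VS-4718, 74.3 to 77.4 with GSK2256098, 57.0 to 60.9 with ifebemtinib, 55.0 to 59.2 with PROTAC FAK degrader 1, 262 to 268 with GSK215 and 236 to 261 with BSJ-04-146. The 3 endothelial markers summed to at most 0.570 CPM and the 3 neuron markers to at most 0.218 CPM in any library. The 5 macrophage markers, with Ptprc and Adgre1 at no more than 1 count in any library and most of the sum from Cd68, summed to 3.71 to 4.08 CPM in DMSO, 3.79 to 6.17 with the kinase inhibitors, 11.2 to 12.0 with PROTAC FAK degrader 1, 6.20 to 7.88 with GSK215 and 7.84 to 9.34 with BSJ-04-146. The 4 fibroblast markers summed to 395 to 414 CPM in DMSO, 383 to 515 with the kinase inhibitors, 291 to 297 with PROTAC FAK degrader 1, 470 to 476 with GSK215 and 361 to 393 with BSJ-04-146, nearly all from Col1a1, with Lum at 0 counts in every library and Dcn at no more than 3. The part of these markers in the results below was not tested. Ptk2 RNA, which these compounds do not target directly, was lower than DMSO past the threshold with 5 compounds, by log2 fold changes of -0.29 to -0.13 (edgeR), and was -0.07 with ifebemtinib and 0.03 with PROTAC FAK degrader 1.

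Myc was the most abundant member per kilobase of exon, with all annotated exons of a gene merged. This is not the length of a transcript, so levels, sums and ratios that compare genes depend on the annotation. On the scale of CPM per kilobase of exon, in DMSO libraries, the level was 139 for Myc, 29.8 for Max, 18.3 for Mlx, 11.0 for Mxd3, 7.47 for Mxi1, 6.84 for Mnt, 6.60 for Mlxip, 0.976 for Mxd1, 0.652 for Mxd4 and 0.0339 for Mycn. Mycn thus stood at the bottom of the network in DMSO, and it ranged from 0 to 0.266 CPM over the 24 libraries with overlapping values in all groups.

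Myc (chromosome 15, 61985391 to 61990374 on GRCm38) was lower than DMSO with 5 compounds, close to it with ifebemtinib and higher with PROTAC FAK degrader 1. The DMSO libraries had 378, 371 and 381 CPM. The levels were 305, 311 and 324 CPM with defactinib, 325, 338 and 318 with VS-4718, and 316, 323 and 329 with GSK2256098, all below every DMSO library. Ifebemtinib gave 398, 377 and 408 CPM, which overlapped DMSO. PROTAC FAK degrader 1 gave 518, 490 and 507 CPM, above every DMSO and kinase inhibitor library. At their lower dose of 0.1 µM, GSK215 gave 244, 253 and 249 CPM and BSJ-04-146 gave 237, 246 and 253, below every DMSO library and overlapping each other.

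As log2 fold changes against DMSO (± standard error), the differences in Myc were -0.27 ± 0.033 with defactinib, -0.20 ± 0.033 with VS-4718, -0.22 ± 0.033 with GSK2256098 and 0.07 ± 0.033 with ifebemtinib. They were 0.42 ± 0.033 for PROTAC FAK degrader 1, -0.60 ± 0.034 for GSK215 and -0.62 ± 0.034 for BSJ-04-146. In the order of group means, which mixes both doses and is given as a description, BSJ-04-146 and GSK215 overlapped, as did defactinib with GSK2256098, GSK2256098 with VS-4718, and DMSO with ifebemtinib, whereas each remaining pair of neighbours was separate. All 7 comparisons share the DMSO libraries. In these bulk libraries a change in the cells present and a change in RNA per cell cannot be told apart.

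**Figure D1:**
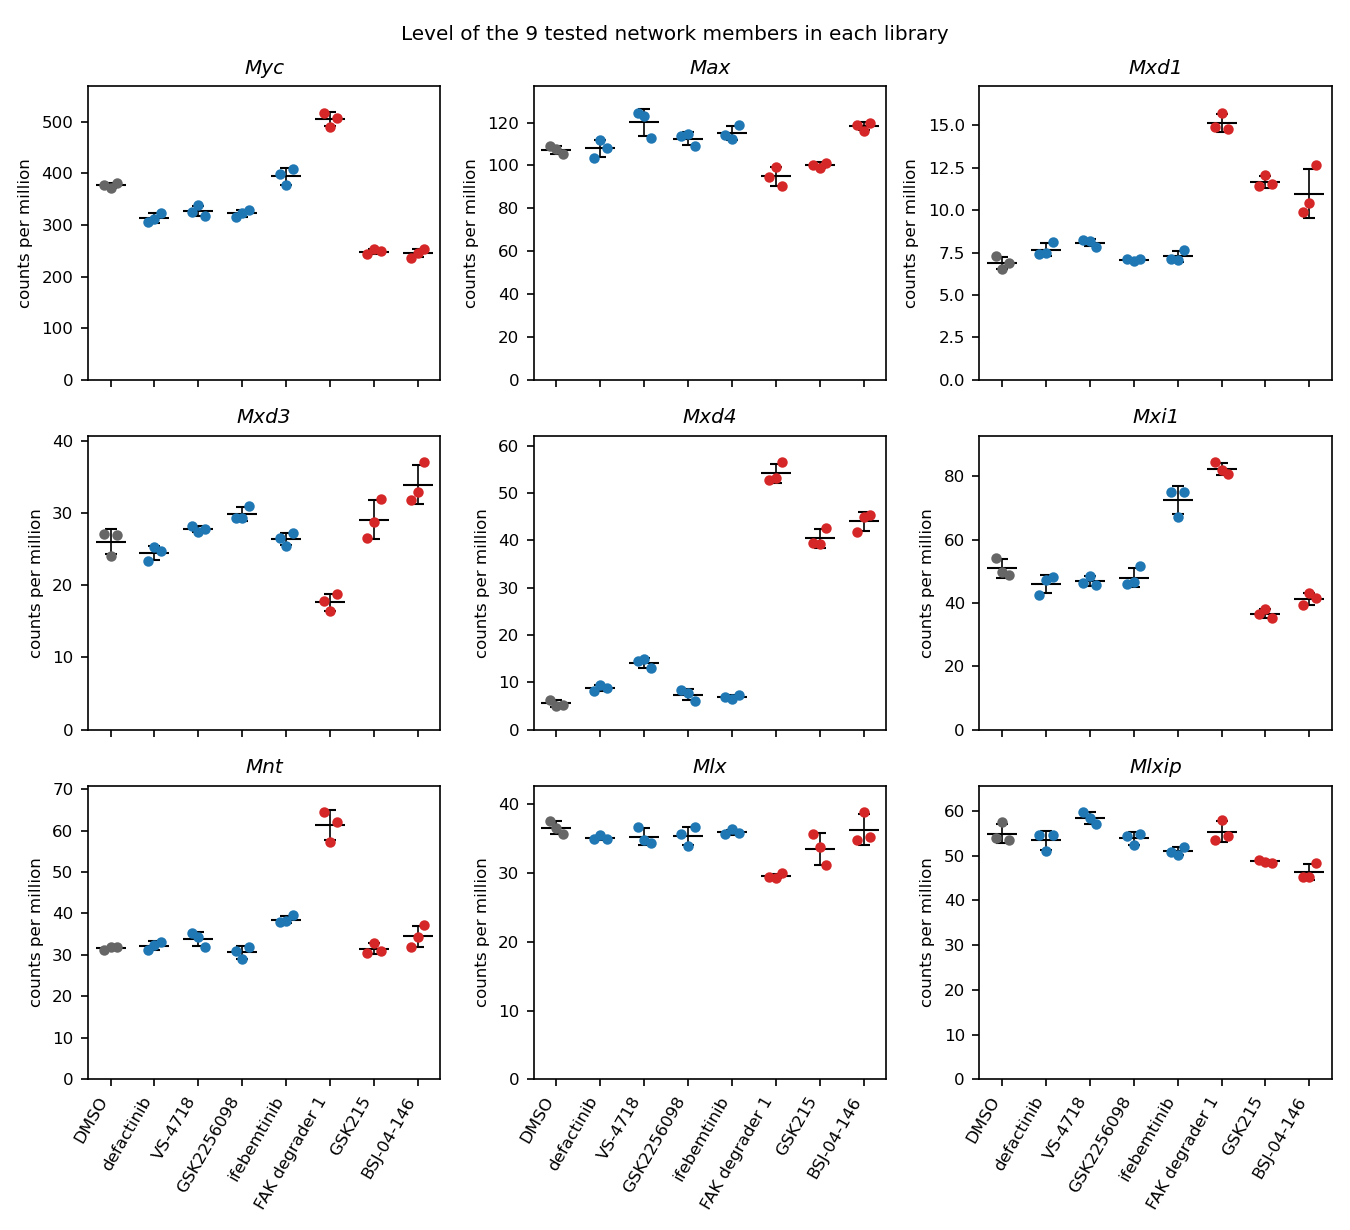
Level of the 9 tested members in CPM (vertical axes, from 0) in each of the 24 libraries, by treatment (horizontal axes). Points are libraries (grey DMSO, blue kinase inhibitors, red PROTACs), and the bar and whiskers are the mean and SD of 3 replicates. GSK215 and BSJ-04-146 were at 0.1 µM and the other compounds at 1 µM. Mxd4 libraries lay between 39.3 and 56.5 with the PROTACs and between 5.04 and 6.33 in DMSO.

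The number of members past the threshold (edgeR's quasi-likelihood test, Benjamini-Hochberg adjusted P of 0.05 over all 16070 genes) is given beside the share of all genes past it, and nothing is read from the former because the same values chose the members. Defactinib had 3 of 9 past it (22.4% of all genes), VS-4718 had 4 (39.2%), GSK2256098 had 3 (12.5%), and ifebemtinib also had 3 (13.3%). Among the PROTACs, 8 were past it with PROTAC FAK degrader 1 (66.8%), 8 with GSK215 (54.7%) and 7 with BSJ-04-146 (54.6%). Myc was among them for all compounds but ifebemtinib, and Mxd4 for all 7. The libraries of 5, 7, 3, 5, 8, 6 and 8 members did not overlap those of DMSO in the same order, beside 35.8%, 47.6%, 31.2%, 31.0%, 69.7%, 60.7% and 59.3% of all genes, and nothing is read from these counts either.

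Max (chromosome 12, 76937269 to 76962201), the shared partner of MYC and of the MXD proteins, varied little. Its mean level was 107 ± 1.74 CPM in DMSO (SD, n = 3) and between 94.9 ± 4.45 with PROTAC FAK degrader 1 and 120 ± 6.35 with VS-4718. The 90.6 to 99.5 CPM with PROTAC FAK degrader 1 lay below all DMSO libraries, with a log2 fold change of -0.18 ± 0.039. VS-4718 and BSJ-04-146 lay above DMSO, with log2 fold changes of 0.16 ± 0.038 and 0.14 ± 0.039. Ifebemtinib (0.10 ± 0.038) and GSK2256098 (0.07 ± 0.038) also lay above all DMSO libraries but were not past the threshold, although ifebemtinib was past it with library totals alone and with only the groups compared (values over all alternatives 0.063 to 0.12). With GSK215 the value was -0.10 ± 0.039, and it was 0.022 when libraries were scaled by their totals alone. The call for GSK215 was also lost without DMSO replicate 1 or 2 or GSK215 replicate 1 or 2, with values over all alternatives of -0.11 to 0.022.

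Among the antagonists, Mxd4 (chromosome 5, 34173883 to 34187720, minus strand), which encodes the repressor MXD4, varied most. The DMSO libraries had 6.33, 5.04 and 5.23 CPM. With the PROTACs the levels were 52.7, 53.3 and 56.5 CPM (PROTAC FAK degrader 1), 39.3, 39.3 and 42.7 CPM (GSK215) and 41.8, 44.9 and 45.4 CPM (BSJ-04-146), above all DMSO libraries. These were 9.83-fold, 7.35-fold and 8.00-fold the level in DMSO, or log2 fold changes of 3.30 ± 0.081, 2.88 ± 0.084 and 3.00 ± 0.084. The doses were 1 µM for the first of these and 0.1 µM for the other two.

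Among the kinase inhibitors Mxd4 was highest with VS-4718, at 14.4, 15.0 and 13.0 CPM, above all other kinase inhibitor libraries (log2 fold change 1.36 ± 0.095). Defactinib gave 8.11, 9.42 and 8.86 CPM, above all DMSO libraries (0.68 ± 0.10). GSK2256098 gave 8.31, 7.74 and 6.01 CPM, of which the lowest fell within the range of DMSO (0.42 ± 0.11). Ifebemtinib gave 6.97, 6.39 and 7.31 CPM, of which the lowest was just above the highest DMSO library (0.33 ± 0.11). The GSK2256098 call was lost without GSK2256098 replicate 1 or DMSO replicate 2 and with thinned libraries (values over all alternatives 0.25 to 0.54). The ifebemtinib call was lost without DMSO replicate 2 or 3 or ifebemtinib replicate 1 or 3, with the replicate block and with limma-trend (0.19 to 0.42). The Schwann cell marker sum was also above that of DMSO with each of the 7 compounds. The macrophage marker sum was above DMSO in every library of all compounds but ifebemtinib. It was highest, as Mxd4 was, with PROTAC FAK degrader 1, where its 2 tested markers differed in direction. Cd68 rose there (log2 fold change 1.70), whereas Csf1r, at 3 to 20 counts over all libraries, was lower (-0.62, not past the threshold). The part of these markers in the Mxd4 values was not tested. With PROTAC FAK degrader 1 the Schwann cell marker sum was 55.0 to 59.2 against 52.6 to 54.0 CPM in DMSO. Of its 8 markers 3 rose and 2 fell with this compound, with log2 fold changes of -1.09 to 1.64. With ifebemtinib 1 rose and 1 fell, with log2 fold changes of -0.41 to 0.85.

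Mxd1 (chromosome 6, 86647042 to 86669161, minus strand), whose protein MXD1 is also called MAD1, was low in DMSO, at 7.28, 6.54 and 6.88 CPM. It was 14.9, 15.8 and 14.8 CPM with PROTAC FAK degrader 1, 11.4, 12.1 and 11.6 CPM with GSK215, and 9.90, 10.4 and 12.6 CPM with BSJ-04-146. All 9 PROTAC libraries were above those of DMSO, with log2 fold changes of 1.14 ± 0.082, 0.76 ± 0.087 and 0.67 ± 0.088. The kinase inhibitor means were 7.08 to 8.09 CPM. The largest of these differences, 0.23 ± 0.088 for VS-4718, was past the threshold but not in 10 of 13 alternatives, so it depended on single libraries and on the tool (values 0.15 to 0.34).

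Mxi1 (chromosome 19, 53310518 to 53375810) encodes MXI1, a further MAX partner that recruits SIN3. The DMSO libraries had 54.3, 49.8 and 48.8 CPM. PROTAC FAK degrader 1 gave 84.4, 82.0 and 80.6 CPM and ifebemtinib 75.1, 67.3 and 74.9 CPM, all above DMSO, with log2 fold changes of 0.69 ± 0.050 and 0.51 ± 0.050. GSK215 gave 36.6, 38.0 and 35.2 CPM and BSJ-04-146 gave 39.2, 43.1 and 41.7 CPM, all below DMSO (-0.47 ± 0.057 and -0.30 ± 0.056). Defactinib, VS-4718 and GSK2256098 had means of 46.0, 46.9 and 48.0 CPM. VS-4718 lay below all DMSO libraries (-0.12 ± 0.052) and was not past the threshold. It was past it with only the groups compared and without DMSO replicate 3 (values over all alternatives -0.16 to -0.081). The difference for defactinib, -0.14 ± 0.053, was past the threshold but not in 8 of 13 alternatives, among them those without DMSO replicate 1 or 2 or without defactinib replicate 1 or 2 (values -0.18 to -0.096).

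Mnt (chromosome 11, 74830920 to 74845725), for the MAX partner MNT that is made in growing and resting cells alike, was higher in the same pair of groups as Mxi1. The DMSO libraries had 31.3, 31.8 and 31.9 CPM. It was 64.4, 57.3 and 62.1 CPM with PROTAC FAK degrader 1, or 1.94-fold the level in DMSO (log2 fold change 0.95 ± 0.051), and 37.9, 38.2 and 39.5 CPM with ifebemtinib (0.28 ± 0.054). In the other 5 compounds the means were 30.6 to 34.5 CPM, and none was past the threshold. BSJ-04-146, whose libraries were all above DMSO (0.12 ± 0.057), was past it with library totals alone and without BSJ-04-146 replicate 1 (values over all alternatives 0.064 to 0.23), and VS-4718 (0.09 ± 0.054) with library totals alone (0.052 to 0.13).

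Mxd3 (chromosome 13, 55325168 to 55329823, minus strand), the MXD gene known for expression in proliferating cells, was ordered differently from the rest of its family. With PROTAC FAK degrader 1 it was 17.8, 16.4 and 18.7 CPM against 27.2, 24.0 and 27.0 CPM in DMSO, with a log2 fold change of -0.56 ± 0.069 and no overlap with any DMSO or kinase inhibitor library. With BSJ-04-146 it was 31.9, 33.0 and 37.0 CPM, above all DMSO libraries (0.38 ± 0.063). GSK215 gave 26.5, 28.8 and 31.9 CPM, which overlapped DMSO (0.17 ± 0.064), and GSK2256098 gave 29.3, 29.4 and 31.0 CPM, which did not (0.20 ± 0.062). The last 2 calls were each lost with DESeq2, with thinned libraries and without DMSO replicate 2, and also without GSK215 replicate 3, or without GSK2256098 replicate 2 or 3 (values 0.089 to 0.29 for GSK215 and 0.12 to 0.23 for GSK2256098).

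Mlx (chromosome 11, 101087277 to 101092207) and Mlxip (chromosome 5, 123394798 to 123457932), the pair that forms the MondoA dimer, had a narrow range. Mlx was 36.6 ± 0.973 CPM in DMSO and 33.5 to 36.3 CPM in all groups but PROTAC FAK degrader 1, where it was 29.4, 29.3 and 29.9 CPM, below every DMSO and kinase inhibitor library (log2 fold change -0.31 ± 0.051). Its GSK215 difference of -0.13 ± 0.051 overlapped DMSO, and the call was lost in 6 of 13 alternatives, among them those without DMSO replicate 1 or 2 or GSK215 replicate 3 (values -0.18 to -0.0094). Mlxip was 54.9 ± 2.17 CPM in DMSO and was below all DMSO libraries with GSK215 (48.7 ± 0.417 CPM, log2 fold change -0.18 ± 0.044) and with BSJ-04-146 (46.3 ± 1.83 CPM, -0.25 ± 0.044). With library totals alone the GSK215 value was -0.053 and no longer past the threshold. Ifebemtinib also lay below all DMSO libraries (-0.11 ± 0.043) and was past the threshold only with thinned libraries (values over all alternatives -0.16 to -0.073). VS-4718 overlapped DMSO (0.09 ± 0.041), and was past the threshold with library totals alone (values over all alternatives -0.031 to 0.12). With PROTAC FAK degrader 1 Mlxip was 55.3 ± 2.37 CPM and overlapped DMSO.

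**Figure D2:**
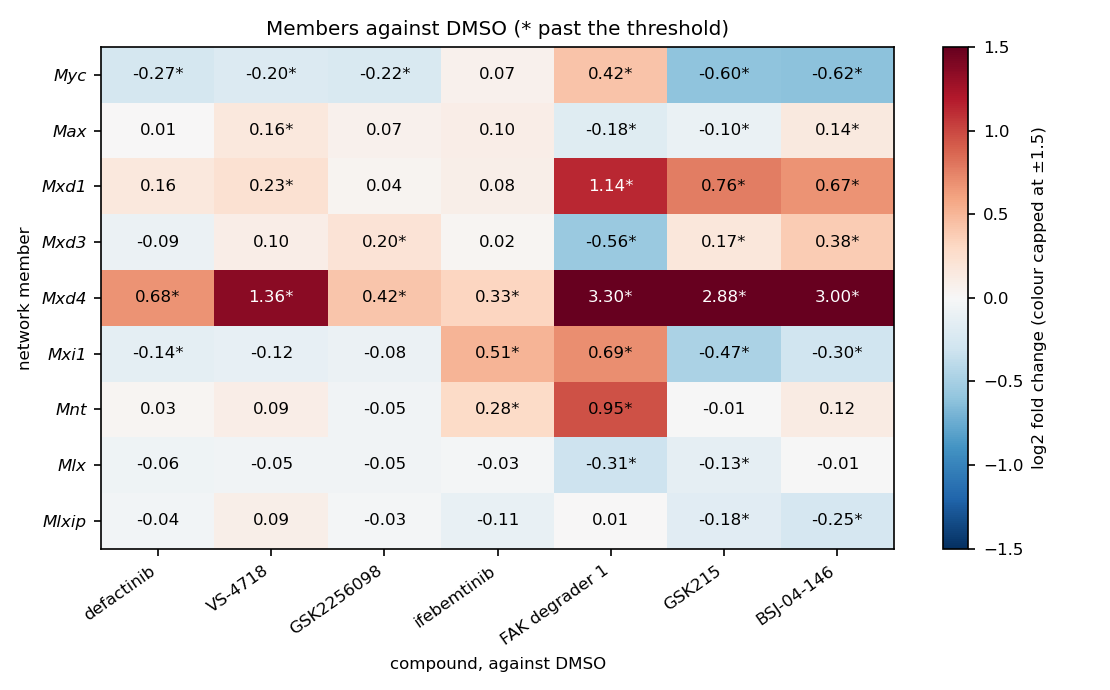
Log2 fold change of each tested member (rows) for each compound against DMSO (columns), with colour capped at ±1.5 and an asterisk where the value passed the threshold over all genes. Mxd4 was higher with every compound, from 0.33 with ifebemtinib to 3.30 with PROTAC FAK degrader 1, whereas Mxi1 was higher with ifebemtinib and PROTAC FAK degrader 1 and lower with GSK215 and BSJ-04-146.

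Exons of 5 members overlap a gene on the opposite strand in GENCODE M21, and the strand setting of the counting is not given in the sources used here, so reads in the shared stretch cannot be told apart. For Mxd4 (514 bases shared with Gm42846), Mxi1 (194 bases with Gm10197) and Mlxip (267 bases with Gm15747) the neighbour had at most 3 counts in any library. For Mlx (385 bases with Psmc3ip) the neighbour had 338 to 698 counts beside 543 to 972 for Mlx, and for Mxd3 (105 bases with Prelid1) it had 4809 to 11022 beside 314 to 740. The levels of Mlx and Mxd3 are therefore uncertain to that extent.

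The 5 antagonists Mxd1, Mxd3, Mxd4, Mxi1 and Mnt were summed per kilobase of exon to compare them with Myc on one scale. The sum was 26.9 ± 1.07 CPM per kilobase in DMSO, 26.2 ± 1.14 with defactinib, 28.7 ± 0.645 with VS-4718, 28.1 ± 0.973 with GSK2256098, 32.0 ± 1.19 with ifebemtinib, 41.3 ± 1.27 with PROTAC FAK degrader 1, 30.9 ± 1.33 with GSK215 and 34.6 ± 2.24 with BSJ-04-146 (SD, n = 3). Mxd4 made up 2.42% of the sum in DMSO, 5.79% with VS-4718, 15.5% with PROTAC FAK degrader 1, 15.4% with GSK215 and 15.0% with BSJ-04-146. Mxd3, whose level is uncertain because of its overlap with Prelid1, had the largest share in DMSO, 40.8%, before Mxi1, 27.7%, and Mnt, 25.4%. The share of Mxd3 was 18.0% with PROTAC FAK degrader 1 and 34.9% to 44.8% in the other groups.

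The ratio of this sum to Myc was 0.194 ± 0.00602 in DMSO, with libraries at 0.201, 0.189 and 0.193. It was 0.227 ± 0.00635 with defactinib, 0.239 ± 0.00551 with VS-4718, 0.237 ± 0.00573 with GSK2256098, 0.220 ± 0.000819 with ifebemtinib and 0.222 ± 0.00210 with PROTAC FAK degrader 1. It was 0.338 ± 0.0106 with GSK215, with libraries at 0.328, 0.336 and 0.349, and 0.383 ± 0.0122 with BSJ-04-146, with libraries at 0.372, 0.380 and 0.396. All treated libraries were above the DMSO libraries. Among the 5 compounds at 1 µM, PROTAC FAK degrader 1 had the highest level of Myc and the highest sum of antagonists, and a ratio between those of ifebemtinib and defactinib. That place depended on Mxd3. Without Mxd3 in the sum, a choice made after seeing the data, the ratio was 0.112 to 0.118 in the DMSO libraries, 0.126 to 0.144 in those of the kinase inhibitors and 0.182 with PROTAC FAK degrader 1, above all of them. It was 0.202 to 0.205 with GSK215 and 0.218 to 0.228 with BSJ-04-146, so all treated libraries were above DMSO in that sum too. The ratio is between RNA levels, and protein levels were not measured in these libraries.

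**Figure D3:**
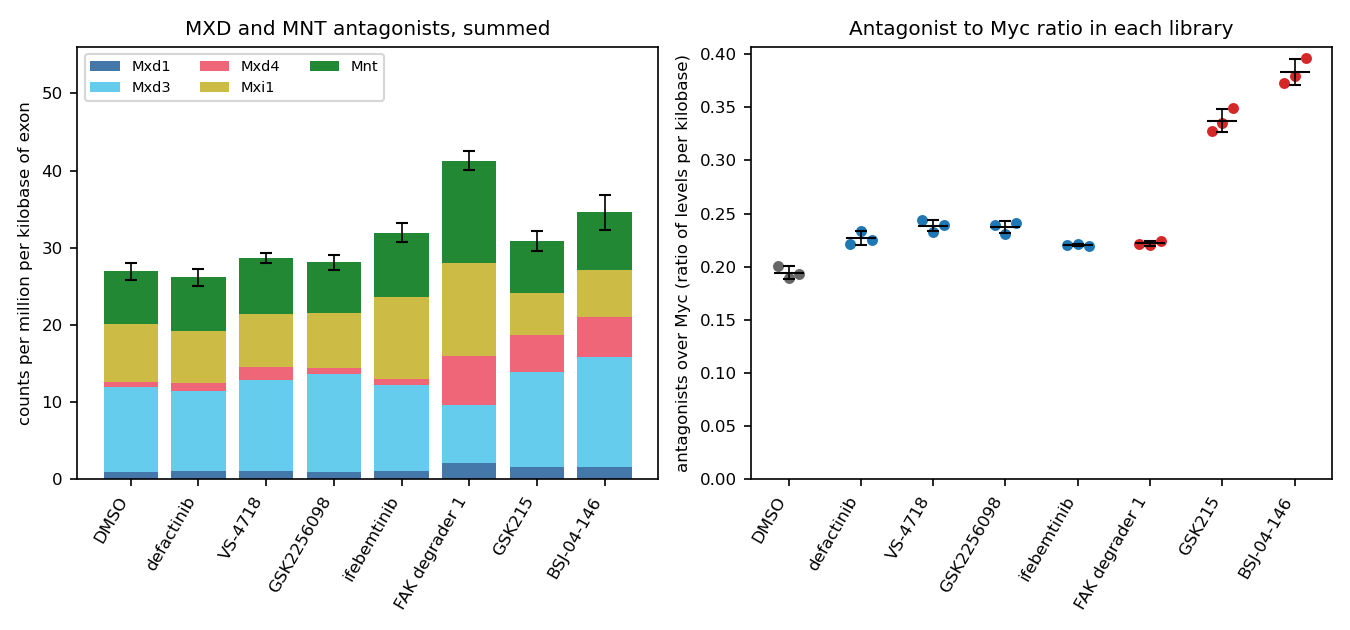
Left, summed level of the 5 antagonist genes in CPM per kilobase of exon by treatment, as stacked group means from 0 with the SD of the sum over 3 replicates. Right, ratio of that sum to Myc in each library, with mean and SD (grey DMSO, blue kinase inhibitors, red PROTACs). The ratio was 0.189 to 0.201 in DMSO and 0.328 to 0.396 in the GSK215 and BSJ-04-146 libraries.

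Of the other genes of the network, Mga, which encodes a large MAX partner, had 100 CPM in DMSO and changed little. Its level rose by a log2 fold change of 0.17 ± 0.041 with PROTAC FAK degrader 1 (edgeR adjusted P = 0.000287) and fell with BSJ-04-146 (-0.22 ± 0.042, adjusted P = 2.03e-05). With GSK215 it was -0.10 ± 0.042 and not past the threshold (adjusted P = 0.0504). It was past it with DESeq2 (-0.11), limma-trend (-0.091), no filter (-0.11) and only the groups compared (-0.096), and was 0.026 with library totals alone. With the 4 kinase inhibitors it was between -0.10 and 0.05 and not past the threshold, but it was past it at -0.15 without VS-4718 replicate 3, and for GSK2256098 (-0.10) and ifebemtinib (-0.097) with only the groups compared. Mycl, the third MYC gene, was at 3.01 CPM in DMSO. It fell with GSK215 (-0.80 ± 0.18, adjusted P = 0.000161) and BSJ-04-146 (-0.46 ± 0.17, adjusted P = 0.0206) and rose with PROTAC FAK degrader 1 (0.41 ± 0.15, adjusted P = 0.0149). The call for BSJ-04-146 was lost without DMSO replicate 2 (-0.36) or BSJ-04-146 replicate 2 (-0.40) or 3 (-0.44), and with DESeq2 (-0.47), library totals alone (-0.35) and thinned libraries (-0.46). That for PROTAC FAK degrader 1 was lost without its replicate 2 (0.33) or DMSO replicate 3 (0.35) and with DESeq2 (0.41). With the kinase inhibitors Mycl was not past the threshold, with log2 fold changes of -0.32 to 0.07. Mlxipl, which encodes the MondoA relative ChREBP, had at most 2 counts per library and was not tested.

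Pvt1, the long noncoding RNA gene beside Myc on chromosome 15, was compared because it lies in the same region. Its mean was 668 CPM in DMSO, 553 with GSK215, 480 with BSJ-04-146 and 772 with PROTAC FAK degrader 1. It fell with VS-4718 (log2 fold change -0.23 ± 0.032, edgeR adjusted P = 2.97e-07), GSK2256098 (-0.12 ± 0.032, adjusted P = 0.0106, lost at -0.10 without GSK2256098 replicate 3), GSK215 (-0.27 ± 0.032, adjusted P = 2.23e-09) and BSJ-04-146 (-0.48 ± 0.032, adjusted P = 8.74e-16), and rose with PROTAC FAK degrader 1 (0.21 ± 0.032, adjusted P = 3.33e-07). Defactinib, with which Myc was lower, gave -0.04 ± 0.032 (adjusted P = 0.38), and ifebemtinib -0.05 ± 0.032 (adjusted P = 0.301).

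A list of 35 genes known as MYC targets, for nucleolar proteins, ribosome assembly, nucleotide and polyamine synthesis, chaperones and cell cycle entry, was examined next. This list and those below were chosen with earlier results of these data known, so their counts and P values are a description. Of these, 34 passed the filter, and Tert did not. The number that fell was 24 with defactinib, 24 with VS-4718, 18 with GSK2256098, 14 with ifebemtinib, 31 with PROTAC FAK degrader 1, 34 with GSK215 and 34 with BSJ-04-146. Of all 16070 genes, 11.0%, 18.9%, 6.09%, 6.85%, 32.7%, 27.2% and 26.9% fell in these comparisons. Scaling by library totals alone moved that split, from 3273 genes higher and 3030 lower to 4015 and 2394 with VS-4718, from 4407 and 4379 to 6190 and 2867 with GSK215, and from 4451 and 4320 to 6018 and 2966 with BSJ-04-146. The split moved the same way with every other compound. It went from 1828 and 1766 to 2063 and 1360 with defactinib, and from 5484 and 5257 to 6280 and 4458 with PROTAC FAK degrader 1. The number that rose was 0 with defactinib, GSK2256098, GSK215 and BSJ-04-146, 1 with VS-4718 (Ppan, 0.13 ± 0.039, lost at 0.10 and 0.081 without DMSO or VS-4718 replicate 1), 2 with ifebemtinib (Ldha, and Fbl at 0.13 ± 0.042, lost at 0.11 to 0.14 without any DMSO replicate or without ifebemtinib replicate 1 or 3) and 1 with PROTAC FAK degrader 1 (Shmt2). The median log2 fold changes of the list were -0.14, -0.22, -0.10, -0.078, -0.68, -0.61 and -0.61 in the same order, while those of all genes were between -0.0044 and 0.021.

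With GSK215 and BSJ-04-146, where Myc was lower, the largest decreases on the list were those of Hspd1, the mitochondrial chaperonin HSP60, Shmt2, a mitochondrial enzyme of one-carbon metabolism, and Odc1, the first enzyme of polyamine synthesis. Shmt2 fell by 0.98 ± 0.033 on the log2 scale with GSK215 (edgeR adjusted P = 2.2e-25) and by 1.00 ± 0.033 with BSJ-04-146 (adjusted P = 1.26e-25). Odc1 fell by 0.94 ± 0.033 with GSK215 (adjusted P = 5.95e-25) and Hspd1 by 1.01 ± 0.030 with BSJ-04-146 (adjusted P = 6.11e-27). Hspd1 also led the decreases with VS-4718 (-0.64 ± 0.030, adjusted P = 6.32e-20), together with the nucleolar protein gene Npm1 (-0.61 ± 0.030, adjusted P = 3.65e-19). With defactinib and GSK2256098 the largest decreases were those of Hspd1 (-0.29 ± 0.030 and -0.25 ± 0.030) and Ldha, for lactate dehydrogenase (-0.27 ± 0.031 and -0.24 ± 0.031).

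With PROTAC FAK degrader 1 the list was lower although Myc was higher. The largest decreases were those of Nolc1, a nucleolar protein gene, from 383 to 146 CPM (log2 fold change -1.39 ± 0.030, edgeR adjusted P = 2.95e-32), and of Apex1, a DNA repair endonuclease gene, from 107 to 41.7 CPM (-1.36 ± 0.047, adjusted P = 2.08e-25). Shmt2 rose from 476 to 645 CPM (0.44 ± 0.032, adjusted P = 2.34e-15). Ldha and Cdk4 were the 2 targets that did not pass the threshold with this compound. With ifebemtinib, where Myc overlapped DMSO, Rrp12 and Ddx21, for ribosome assembly proteins, fell by 0.25 ± 0.039 and 0.22 ± 0.029 (adjusted P = 3.1e-05 and 1.18e-06), whereas Ldha rose by 0.22 ± 0.031 (adjusted P = 4.17e-06).

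**Figure D4:**
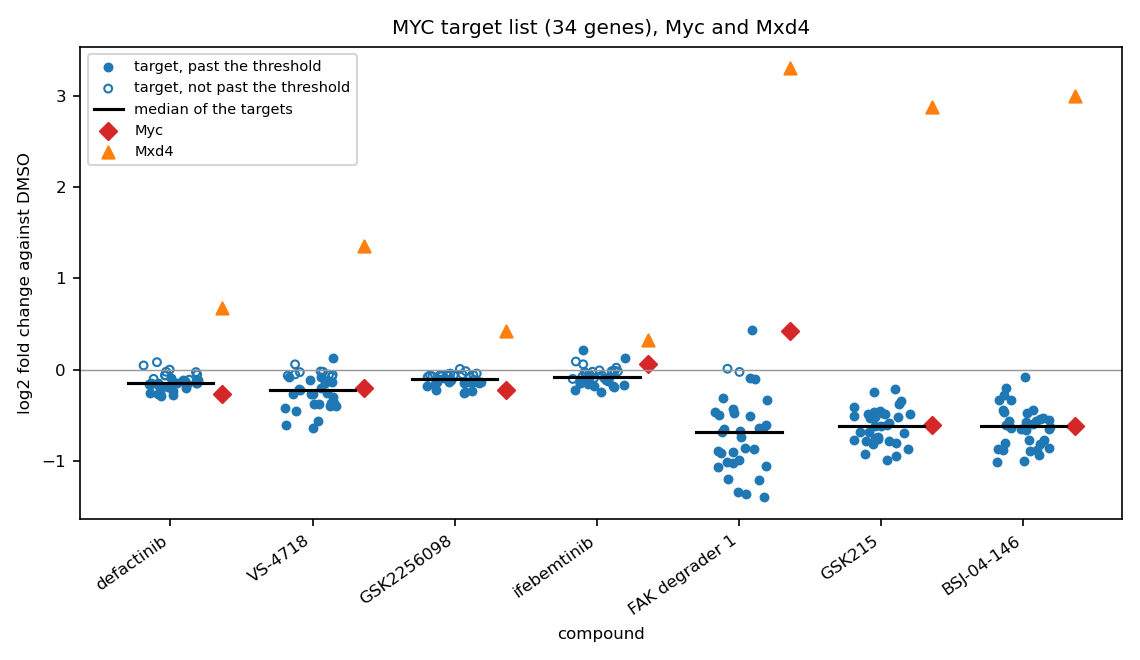
Log2 fold change against DMSO (vertical axis) of each of 34 MYC target genes for each compound (horizontal axis), filled where past the threshold, with the list's median as a line, Myc as red diamonds and Mxd4 as orange triangles. The list's median was -0.68 with PROTAC FAK degrader 1, where Myc was at 0.42, and -0.61 with GSK215, where Myc was at -0.60.

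Of 7 genes known to be repressed by MYC, 6 were tested, and Cdkn1c had 0 counts. They did not move as a group. With PROTAC FAK degrader 1, 5 rose and none fell, among them Gadd45a, a DNA damage response gene (log2 fold change 3.04 ± 0.066, edgeR adjusted P = 5.37e-32), and Ndrg1, a stress-responsive gene (2.53 ± 0.037, adjusted P = 4.92e-37). With ifebemtinib 5 also rose, among them Ndrg1 (0.93 ± 0.038, adjusted P = 2.15e-20) and Cdkn1a, for the cell cycle inhibitor p21 (0.76 ± 0.074, adjusted P = 1.07e-09). With the other compounds Cdkn1a fell, by 0.68 ± 0.085 with defactinib, 1.00 ± 0.088 with VS-4718, 0.62 ± 0.085 with GSK2256098, 1.82 ± 0.11 with GSK215 and 1.18 ± 0.097 with BSJ-04-146, and Ndrg1 fell in these groups as well. The count of genes that rose was 1 with defactinib, 0 with VS-4718, 0 with GSK2256098, 4 with GSK215 and 4 with BSJ-04-146, and the count that fell was 3, 3, 3, 2 and 2. The Gadd45a call with GSK215 was lost without DMSO replicate 3 (0.22) or GSK215 replicate 1 (0.19). The shares of all genes that rose in these 5 comparisons were 11.4%, 20.4%, 6.36%, 27.4% and 27.7% and of those that fell 11.0%, 18.9%, 6.09%, 27.2% and 26.9%, while the shares that rose were 34.1% with PROTAC FAK degrader 1 and 6.44% with ifebemtinib. The gene that rose with defactinib was Cdkn1b, a cell cycle inhibitor gene (0.11 ± 0.039, adjusted P = 0.0311), and its call was lost without any DMSO replicate, without defactinib replicate 1 or 2, and with no filter (0.099 to 0.12).

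The cofactor and turnover list held 22 genes for MYC ubiquitin ligases and deubiquitinases, SIN3 and HDAC corepressors, and coactivators such as TRRAP and TIP60, all of them tested. The number past the threshold was 4 with defactinib, 14 with VS-4718, 4 with GSK2256098, 4 with ifebemtinib, 19 with PROTAC FAK degrader 1, 16 with GSK215 and 14 with BSJ-04-146, beside 22.4%, 39.2%, 12.5%, 13.3%, 66.8%, 54.7% and 54.6% of all genes. The ifebemtinib count was 10 with only the groups compared and 2 without DMSO replicate 1 or ifebemtinib replicate 3. That of GSK2256098 was 2 without its replicate 1. Sin3b, for a corepressor that MXD proteins recruit, rose with VS-4718 (log2 fold change 0.31 ± 0.035, edgeR adjusted P = 4.25e-09), PROTAC FAK degrader 1 (0.39 ± 0.036, adjusted P = 2.55e-12), GSK215 (0.25 ± 0.037, adjusted P = 2.69e-07) and BSJ-04-146 (0.38 ± 0.036, adjusted P = 1.46e-11). Its relative Sin3a was named after its values were seen, so they are a description and without P values. In the same groups they were -0.14 ± 0.036, -0.12 ± 0.037, -0.24 ± 0.038 and -0.25 ± 0.038. With library totals alone the value for PROTAC FAK degrader 1 was -0.041 and not past the threshold. The largest decreases with GSK215 and BSJ-04-146 were those of Ruvbl2 (-0.75 ± 0.045 and -0.66 ± 0.044) and Ruvbl1 (-0.65 ± 0.036 and -0.60 ± 0.036), for helicases of the TIP60 complex. With PROTAC FAK degrader 1, Skp2, for the F-box subunit of a ubiquitin ligase of MYC, fell by 1.22 ± 0.039 (adjusted P = 1.31e-26).

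Txnip, for thioredoxin-interacting protein, and Arrdc4, its arrestin-domain relative, are the best known genes under MondoA and MLX. Txnip was at 26.2 CPM in DMSO, 147 with PROTAC FAK degrader 1, 72.6 with GSK215 and 75.0 with BSJ-04-146. It rose, on the log2 scale, by 2.49 ± 0.045 with PROTAC FAK degrader 1 (edgeR adjusted P = 2.5e-34), and also with GSK215 (1.47 ± 0.049, adjusted P = 1.58e-25), BSJ-04-146 (1.52 ± 0.049, adjusted P = 5.09e-26), VS-4718 (0.55 ± 0.051), defactinib (0.45 ± 0.052) and ifebemtinib (0.33 ± 0.053), and was -0.07 ± 0.055 with GSK2256098 (adjusted P = 0.475). In these PROTAC groups the libraries of Mlx and of Mlxip overlapped those of DMSO or lay below them. Their part in the Txnip values was not tested. Arrdc4 rose with PROTAC FAK degrader 1 (1.68 ± 0.12, adjusted P = 1.57e-15), GSK215 (0.68 ± 0.14, adjusted P = 4.32e-05) and defactinib (0.51 ± 0.13, adjusted P = 0.00424). Its calls for VS-4718 (0.33 ± 0.13, adjusted P = 0.0471) and BSJ-04-146 (0.33 ± 0.14, adjusted P = 0.0478) were lost in 10 and 9 of 13 alternatives, among them those without DMSO replicate 2 (0.28 and 0.29) or 3 (0.30 and 0.31), without DMSO replicate 1 or VS-4718 replicate 2 or 3 for VS-4718 (0.24 to 0.38), and without any BSJ-04-146 replicate for BSJ-04-146 (0.29 to 0.35). It was -0.20 ± 0.15 with GSK2256098 and 0.12 ± 0.14 with ifebemtinib, neither past the threshold.

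The MondoA list held these 2 genes and 4 others, which differed in direction. Of the 6 genes, the number that rose was 2 with defactinib, 2 with VS-4718, 0 with GSK2256098, 3 with ifebemtinib, 4 with PROTAC FAK degrader 1, 2 with GSK215 and 2 with BSJ-04-146, and the number that fell was 3, 4, 4, 0, 1, 3 and 3. Of all genes, 11.4%, 20.4%, 6.36%, 6.44%, 34.1%, 27.4% and 27.7% rose and 11.0%, 18.9%, 6.09%, 6.85%, 32.7%, 27.2% and 26.9% fell. Hk2, for hexokinase 2, fell with GSK215 (log2 fold change -1.04 ± 0.037, edgeR adjusted P = 1.24e-24), BSJ-04-146 (-1.24 ± 0.038, adjusted P = 8.84e-27), VS-4718 (-0.64 ± 0.035), defactinib (-0.22 ± 0.034) and GSK2256098 (-0.21 ± 0.034), rose with ifebemtinib (0.16 ± 0.034) and was 0.02 ± 0.034 with PROTAC FAK degrader 1 (adjusted P = 0.659). Pfkfb3, for a regulator of glycolysis, fell with GSK215 (-1.07 ± 0.059), BSJ-04-146 (-1.19 ± 0.061), VS-4718 (-0.50 ± 0.053), PROTAC FAK degrader 1 (-0.43 ± 0.054, adjusted P = 4.5e-09), GSK2256098 (-0.31 ± 0.052) and defactinib (-0.23 ± 0.052), and was 0.12 ± 0.051 with ifebemtinib (adjusted P = 0.106). With library totals alone the Hk2 value for PROTAC FAK degrader 1 was 0.10 and past the threshold.

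Arrdc3, a further arrestin-domain gene, rose with PROTAC FAK degrader 1 (1.17 ± 0.059, edgeR adjusted P = 3.02e-20) and ifebemtinib (0.22 ± 0.063, adjusted P = 0.0148, lost at 0.16 without DMSO replicate 3, and at 0.21 without ifebemtinib replicate 1 or 3). It fell with GSK215 (-0.49 ± 0.071, adjusted P = 1.55e-07), BSJ-04-146 (-0.33 ± 0.070, adjusted P = 9.52e-05), VS-4718 (-0.46 ± 0.066, adjusted P = 3.65e-07), GSK2256098 (-0.27 ± 0.066, adjusted P = 0.00454, lost at -0.22 with thinned libraries) and defactinib (-0.21 ± 0.065, adjusted P = 0.0186, lost at -0.16 to -0.19 without DMSO replicate 1 or 2 or defactinib replicate 1 and with thinned libraries). Klf10, for a transcription factor, rose with PROTAC FAK degrader 1 (0.44 ± 0.062, adjusted P = 7.64e-08). It fell with VS-4718 (-0.19 ± 0.064, adjusted P = 0.0187) and GSK2256098 (-0.22 ± 0.065, adjusted P = 0.0222). The call for VS-4718 was lost without DMSO replicate 1 (-0.16) or VS-4718 replicate 3 (-0.17), and that for GSK2256098 without DMSO replicate 1 (-0.18) or 2 (-0.22) or GSK2256098 replicate 1 (-0.21) or 3 (-0.22). The remaining values of Klf10 were between -0.07 and 0.10, and that for GSK215 was past the threshold at 0.19 without GSK215 replicate 3 and at 0.23 with library totals alone.

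GSK215 and BSJ-04-146 were given at the same dose, 0.1 µM, and their members were compared directly. Of the 9 tested members 3 were past the threshold, beside 22.5% of all genes, and all 3 were lower with GSK215. The log2 difference was -0.24 ± 0.040 for Max (95% confidence interval -0.32 to -0.16), -0.21 ± 0.065 for Mxd3 (-0.35 to -0.083) and -0.18 ± 0.061 for Mxi1 (-0.30 to -0.054). The libraries of 2 members did not overlap, as for 34.2% of all genes. They were those of Max, at 98.7 to 101 CPM with GSK215 and 116 to 120 CPM with BSJ-04-146, and of Mxi1, at the levels given above. Without BSJ-04-146 replicate 3 only Max remained past the threshold. The Mxd3 call was also lost without GSK215 replicate 1 or 2 (values over all alternatives -0.29 to -0.15), and the Mxi1 call without GSK215 replicate 1 or 3 or BSJ-04-146 replicate 2 (-0.21 to -0.14). Mlx (-0.12 ± 0.054) was past the threshold only without GSK215 replicate 1, and Mnt (-0.13 ± 0.059) only without BSJ-04-146 replicate 1. For Myc the difference was 0.02 ± 0.035 (interval -0.051 to 0.089) and for Mxd4 -0.12 ± 0.064 (interval -0.25 to 0.0084).

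PROTAC FAK degrader 1 was given at 1 µM, as were the 4 kinase inhibitors, and was compared with their mean, each inhibitor with equal weight. Here 8 of the 9 members were past the threshold, beside 72.3% of all genes. The log2 differences were 2.60 ± 0.053 for Mxd4, 1.01 ± 0.062 for Mxd1, 0.87 ± 0.039 for Mnt, 0.65 ± 0.039 for Mxi1 and 0.58 ± 0.025 for Myc (95% confidence interval 0.53 to 0.63), all higher with the PROTAC. They were -0.62 ± 0.057 for Mxd3, -0.26 ± 0.032 for Max and -0.26 ± 0.042 for Mlx, all lower. For these 8 genes every PROTAC library lay outside the range of the 12 kinase inhibitor libraries, as did those of 50.1% of all genes. For Mlxip the difference was 0.03 ± 0.034 (interval -0.038 to 0.10), and it was past the threshold at 0.094 with library totals alone. GSK215 and BSJ-04-146 were given at a lower dose than the other compounds, so their values stand beside those at 1 µM without a test of the difference.

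**Figure D5:**
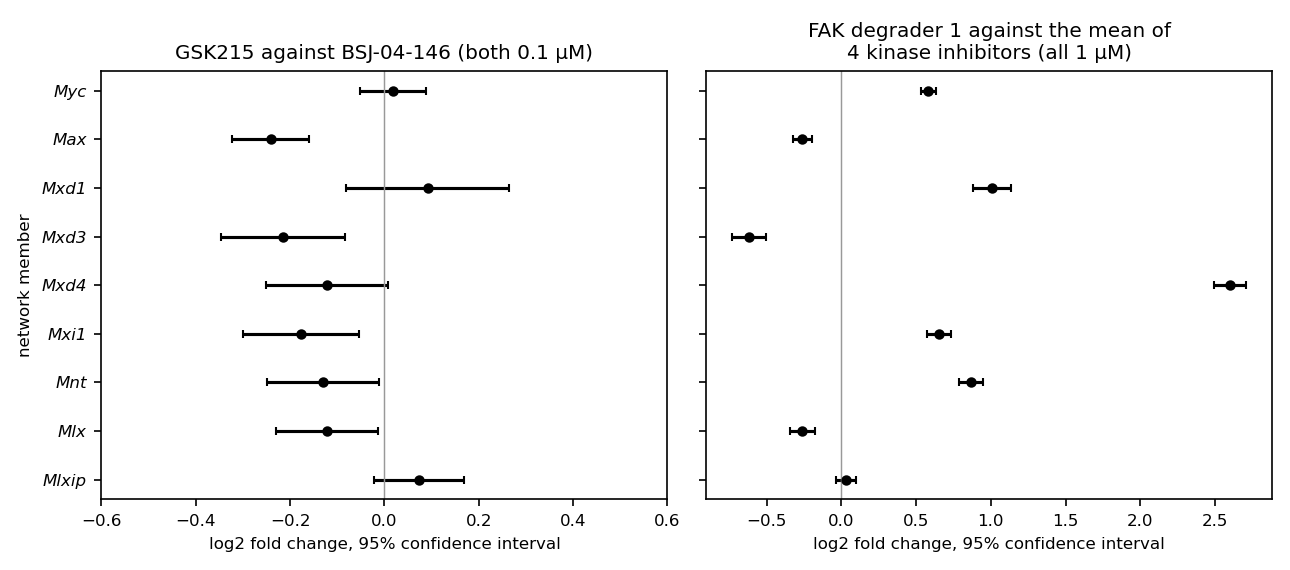
Log2 fold change of each tested member (rows) with its 95% confidence interval, for GSK215 against BSJ-04-146, both at 0.1 µM (left), and for PROTAC FAK degrader 1 against the mean of 4 kinase inhibitors, all at 1 µM (right, on a wider axis). On the left all values lay between -0.24 and 0.09, and on the right they reached 2.60 for Mxd4.

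The genes whose levels were most like those of Myc over the 24 libraries were found by Pearson's r of log2 CPM among 9855 genes with a mean of at least 5 CPM. They were Per1, a circadian repressor gene (r = 0.980), Nfil3, a transcription factor gene (r = 0.977), and Nob1, for a ribosome assembly endonuclease (r = 0.973). Nfil3 was at 25.7 CPM in DMSO, 71.1 with PROTAC FAK degrader 1, 9.53 with GSK215 and 10.2 with BSJ-04-146. For Mxd4 they were Pik3ip1, for an inhibitor of phosphoinositide 3-kinase (r = 0.989), Vwa5a (r = 0.988) and Sfxn3, for a mitochondrial serine carrier (r = 0.982). Pik3ip1 was at 4.51 CPM in DMSO, 7.44 with VS-4718, 17.9 with PROTAC FAK degrader 1, 13.9 with GSK215 and 14.4 with BSJ-04-146. These likenesses are a description over 24 libraries that share 8 treatments.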

How the data were processed

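MS03 cells were profiled by poly(A)-selected bulk RNA sequencing (NEBNext Ultra II libraries) in 24 libraries. The authors deposited raw counts per gene, and the submitters' processing notes name Trimmomatic 0.36, STAR 2.5.2b, featureCounts of Subread 1.5.2 and GRCm38. The annotation and strand setting are not given in the sources used here. R 4.3.3 and edgeR 4.0.16 were used, with TMM, filterByExpr and the quasi-likelihood test (glmQLFit, glmQLFTest), in a model of 8 group means that left 16 residual degrees of freedom. P values were two-sided, with Benjamini-Hochberg adjustment across 16070 genes and a threshold of 0.05. CPM are TMM-scaled. Standard errors and 95% intervals come from the fitted log2 fold change and its F statistic. The steps were tested on simulated data.

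The members and gene lists were chosen with earlier results of these data known, so the P values given for genes of the lists are no independent test. Members, other network genes and MondoA target genes are all reported. From the other lists, up to 2 genes higher and 2 lower with the largest fold were named per compound, if past the threshold and averaging at least 5 CPM over all libraries. Some genes of the lists are counted in the list totals but are not reported here by name. Likeness used log2(CPM + 0.5) and left out genes with provisional names. Gene positions and exon lengths are from GENCODE M21 and promoters from RefSeq. No protein sequences were used here. Alternatives were DESeq2 1.42.0, library totals alone, limma-trend (limma 3.58.1) on log2(CPM + 4), thinned libraries, no low-count filter, a block for the replicate number, only the groups compared, and each library left out in turn.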

Additional observations from a re-analysis of the deposited data

How the results depend on the processing

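The 81 member values (9 members in 9 comparisons) were recomputed under 13 alternatives each, or 22 for PROTAC FAK degrader 1 against the kinase inhibitors. The same values chose the members, so nothing is read from the counts of members that follow. Of the 81 values, 47 were past the threshold, beside 12.5% to 72.3% of all genes in the 9 comparisons. Of these 47, 36 were past it under every alternative run and 46 kept their sign under all of them. The exception was Max with GSK215, at 0.022 with library totals alone. That scaling moved the all-gene median from 0.021 to 0.14 with GSK215 and from 0.018 to 0.13 with BSJ-04-146, and the value of Max was below that median. Mga with GSK215 (0.026) and Klf10 with BSJ-04-146 (0.058), neither past the threshold, also changed sign with library totals. Hk2 with PROTAC FAK degrader 1 was -0.0062 with thinned libraries. With single libraries left out, Mycl with VS-4718 was -0.060 to 0.10 and Klf10 with BSJ-04-146 was -0.092 to 0.0046. The cause of these changes was not tested.

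The number of members past the threshold was 1 with GSK2256098 when libraries were thinned (beside 1418 of 14700 genes) and 5 with GSK215 when library totals alone were used (beside 9057 of 16070). With single libraries left out it was 1 to 3 with GSK2256098, 5 to 8 with GSK215 and 1 to 4 for GSK215 against BSJ-04-146. The lowest counts were those without DMSO replicate 2 in the first 2 cases and without BSJ-04-146 replicate 3 in the last. The cofactor and turnover list had 10 genes past the threshold with ifebemtinib when only the groups compared were fitted, beside 2784 of 14480 genes. With single libraries left out it had 2 to 4 with ifebemtinib (2 without DMSO replicate 1 or ifebemtinib replicate 3). It had 2 to 4 with GSK2256098 (2 without its replicate 1). The counts of the MYC target list stayed within 1.5 times under every alternative run.

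Same-numbered replicates did not deviate together, with correlations of -0.22 to 0.15 over 84 pairs and a median of -0.0062, so the numbers were not taken to pair the libraries. Pairs with other numbers were at -0.23 to 0.37 over 168 pairs, with a median of 0.0025. Of these, 12 were over 0.1, beside 3 of the same-numbered pairs, so some libraries of different groups shared deviations apart from the numbers. With the replicate number as a block, 2 members were past the threshold with defactinib and 2 with ifebemtinib, in place of 3 each (the calls of Mxi1 and Mxd4 were lost), and the counts for the other 7 comparisons were 4, 3, 8, 8, 7, 3 and 8 as without it. With the block, 3473 of 16070 genes were past the threshold with defactinib and 2046 with ifebemtinib. Depth limits the precision for Mxd1 and Mxd4 in DMSO, with 161 to 174 and 127 to 140 counts per library.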
